A study of Mus musculus with 12 samples.

Results

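The subunits of voltage-gated calcium and sodium channels were followed in rod photoreceptors and in whole retina of mice with and without Pkm2 in rods. Members were all table entries whose symbol begins with Cacna, Cacnb or Cacng, or with Scn followed by a number and a or b, leaving out Cacna1f and Cacna2d4. The rule gave 38 of the 56748 genes in the table. They were 9 pore-forming calcium channel alpha1 subunits, 3 alpha2delta subunits, 4 calcium channel beta subunits, 8 gamma subunits, 10 pore-forming sodium channel alpha subunits and 4 sodium channel beta subunits.

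The study sequenced polyadenylated RNA of mouse retina from 12 libraries, 3 in each of 4 groups. Control mice (Pkm2 Rodhet) carried 1 floxed Pkm2 allele together with rhodopsin-Cre, and knockout mice (Pkm2 Rodko) carried both Pkm2 alleles floxed together with the same Cre. Every mouse also had both copies of the Ribo-Tag allele, in which Cre switches on a tagged ribosomal protein, so that ribosomes of cells that used the rhodopsin promoter could be pulled down with beads. The bead libraries are called rods below and the libraries of the input lysate are called retina. The same Cre drove the tag and the deletion, so cells without Cre activity carried neither. The age was given as 2 weeks in the series description and as 2 months in the methods, and whether a library came from 1 animal or from a pool was not stated, so p-values measure the spread between these libraries.

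Voltage-gated calcium channels let calcium into a cell when its membrane depolarises. The alpha1 subunit forms the pore, the intracellular beta subunit brings it to the membrane and tunes its gating, and the extracellular alpha2delta subunit aids its trafficking. Rods release glutamate through an L-type channel whose pore is Cacna1f and whose alpha2delta subunit is Cacna2d4, with Cacnb2 as the known beta subunit of photoreceptors. Several proteins named as gamma subunits serve mainly as partners of AMPA-type glutamate receptors. Voltage-gated sodium channels carry the action potentials of ganglion cells and of some amacrine and bipolar cells, and their beta subunits are small membrane proteins that modify gating and cell adhesion.

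The sequences just before the transcription starts of Cacnb2 and Scn4a are shown because these were the only members called higher in rods than in retina. They are the 250 bases before each start, 5′ to 3′ on the strand of the gene, from RefSeq on GRCm38.p6. Capitals mark matches, on either strand, to TAATCC (the core of the binding site of the photoreceptor factor CRX), TGCTGA (part of the site of the rod factor NRL) or GGGCGG (a GC box), and no marked match overlapped another. Cacnb2 has one start at the plus-strand window chr2:14604056-14604305 and another at chr2:14823842-14824091, and the Scn4a window is chr11:106349391-106349640 on the minus strand.
Cacnb2 first start: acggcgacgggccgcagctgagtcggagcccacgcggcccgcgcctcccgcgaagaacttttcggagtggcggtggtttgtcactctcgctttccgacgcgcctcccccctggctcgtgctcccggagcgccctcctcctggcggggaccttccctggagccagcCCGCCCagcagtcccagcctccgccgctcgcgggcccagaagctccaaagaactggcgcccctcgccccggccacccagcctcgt
Cacnb2 second start: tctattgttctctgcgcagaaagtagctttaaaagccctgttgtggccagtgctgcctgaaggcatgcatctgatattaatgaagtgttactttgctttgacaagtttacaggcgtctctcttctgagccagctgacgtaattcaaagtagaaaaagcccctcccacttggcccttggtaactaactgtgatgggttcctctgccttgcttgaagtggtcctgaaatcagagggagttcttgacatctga
Scn4a: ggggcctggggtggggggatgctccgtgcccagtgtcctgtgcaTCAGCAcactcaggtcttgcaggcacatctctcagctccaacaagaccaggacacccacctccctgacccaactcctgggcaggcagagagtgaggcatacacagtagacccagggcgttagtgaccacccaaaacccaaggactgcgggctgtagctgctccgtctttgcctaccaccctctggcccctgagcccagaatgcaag
The first Cacnb2 window held 1 GC box, read on the reverse strand, the second held none of these letters, and the Scn4a window held 1 match to TGCTGA, also on the reverse strand. Of all 32851 promoters of this length, 16.1% held TGCTGA, 32.7% held GGGCGG and 6.25% held TAATCC. The 40 promoters listed for 29 of the members held them in 8, 14 and 3 cases. A match is a description of the letters and not a site of binding.

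The libraries held 13458890 to 22790074 reads. Pkm, the gene that was floxed, had 52141, 51049 and 54504 size-factor-scaled reads in control rods and 23751, 22553 and 22246 in knockout rods. It was lower in knockout rods by a log2 difference of -1.20 (SE 0.0838, limma with Benjamini-Hochberg adjusted p = 5.36e-05) and in knockout retina by -0.65 (SE 0.0742, adjusted p = 0.0219). These values count the Pkm1 and Pkm2 isoforms together, so they do not measure the loss of Pkm2 alone. The paper reports lower Pkm2 and higher Pkm1 in knockout rods. The retina call was lost without any 1 of 5 of the 6 libraries (adjusted p up to 0.949; 0.02 without control retina library 2), with the filter of 10 reads in every library (0.0933) and with the replicate number as a block (0.157), while the log2 difference stayed between -0.68 and -0.61 without 1 library. All 18 rod markers were higher in rods than in retina in control mice, with a median log2 difference of 1.91. The medians of the bipolar, Müller, amacrine, horizontal and ganglion cell lists lay between -3.32 and -2.83. The cone list was lowered far less, with a median of -0.70 and 9 of 10 markers called lower. Ddx3y, a Y-linked gene, had 0 reads in both fractions of control libraries 1 and 2 and was present in the other libraries, so control and knockout libraries differed in Y-linked RNA; its part in the results was not tested. In such bulk RNA, fewer cells of a type and less RNA per cell cannot be told apart.

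The first comparison asked which subunits were enriched on rod ribosomes. Of the 36 members tested in control mice, 2 were higher in rods than in retina, namely Cacnb2 and Scn4a, and 33 were lower. Of the latter, Scn11a had 0 reads in rods and passed the filter for testing only through retina. Its place in this count is therefore no evidence of a difference. Among all genes 23.6% were higher and 35.7% were lower. The median log2 difference of the members was -3.05, beside -0.36 over all genes tested. Of the 36 members, 29 lay below -2, as did 45 of the 50 markers of bipolar, Müller, amacrine, horizontal and ganglion cells, whose median was -2.99. The part of RNA from these cells in the rod levels of the members was not tested. Levels are reads scaled over all 12 libraries together (common-scale reads). Differences were taken after adding 1 read to each value and taking log2, so those of genes with few reads are too small. When libraries were scaled by their total reads instead, the median over all genes moved to -0.76, that of the members to -3.59, and the calls over all genes from 6004 higher and 9090 lower to 2186 and 12701.

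**Figure D1:**
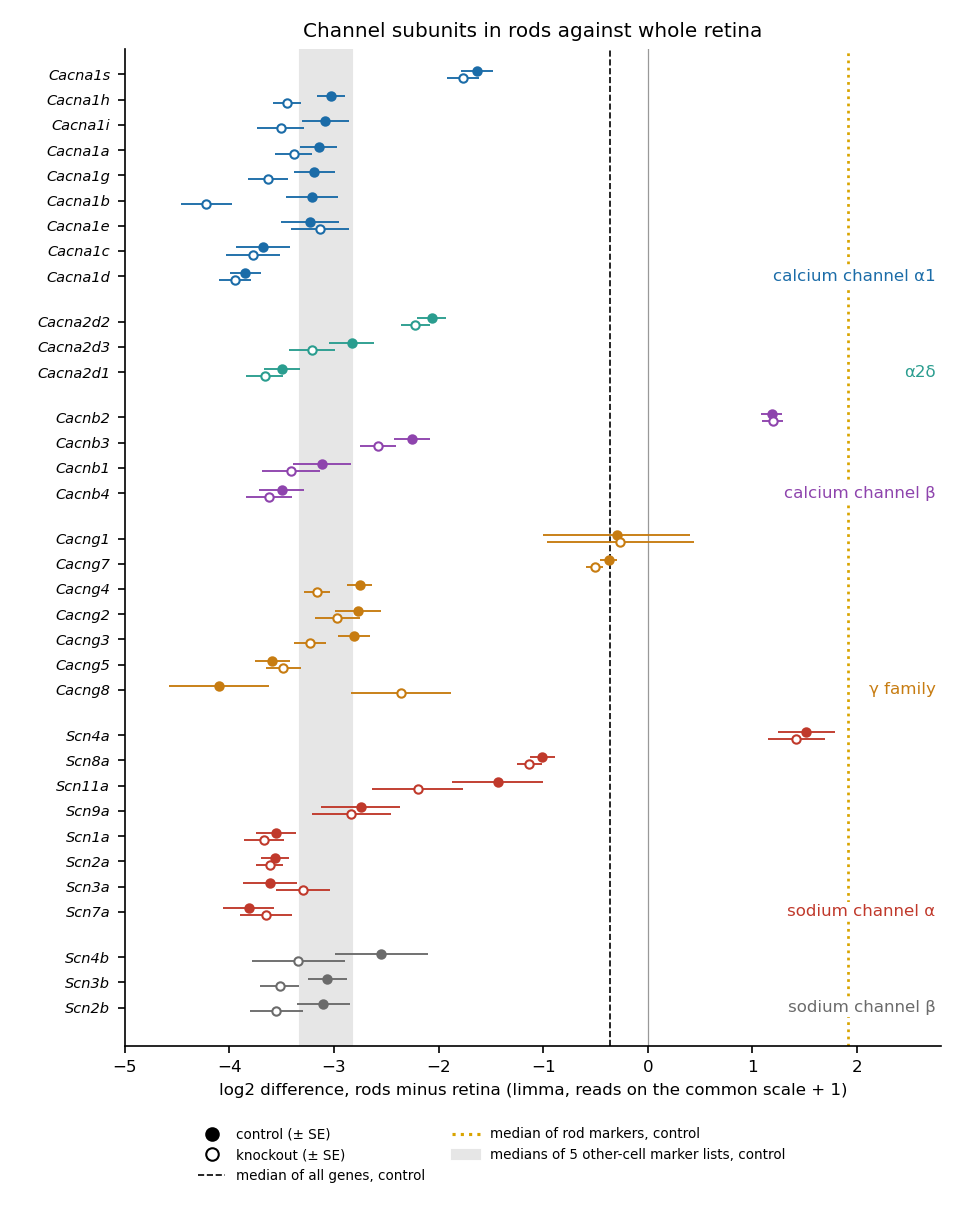
Log2 difference between rods and retina (horizontal axis) for the tested members named here, grouped by class, with filled points for control, open points for knockout and bars for the SE. Cacnb2 (1.18) and Scn4a (1.52) lie right of 0, and Cacng7 (-0.37) lies beside the dashed median of all genes (-0.36). Most other members lie in or near the grey band of the bipolar, Müller, amacrine, horizontal and ganglion marker lists (-3.32 to -2.83), which leaves out the cone list.

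Cacnb2 was the calcium channel beta subunit with the highest level in rods. It had 7057, 7125 and 7923 common-scale reads in control rods and 2968, 3623 and 3160 in control retina. The lowest rod library stood above the highest retina library. The level was 2.27-fold higher in rods (log2 difference 1.18, SE 0.101, limma with Benjamini-Hochberg adjusted p = 6.54e-08). The 3 other beta subunits were all lower in rods. Cacnb3 had 158, 188 and 175 reads in control rods and 805, 836 and 850 in retina, a log2 difference of -2.25 (SE 0.171). Cacnb4, which is mutated in the ataxic lethargic mouse, differed by -3.50 (SE 0.217) and Cacnb1, the form of skeletal muscle, by -3.12 (SE 0.275). Per kilobase of exon, Cacnb2 made up 90.8% ± 1.4 (SD, n = 3) of the beta subunit level in control rods and 42.7% ± 3.2 in control retina.

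All 9 alpha1 subunits were lower in rods, with a median log2 difference of -3.19. The least lowered was Cacna1s, the pore of the L-type channel of skeletal muscle. It had 123, 133 and 112 common-scale reads in control rods and 395, 365 and 388 in control retina, 3.10-fold lower (log2 difference -1.63, SE 0.151, limma with Benjamini-Hochberg adjusted p = 1.65e-07). The remaining 8 lay between -3.85 and -3.03. Cacna1d, the L-type pore of inner hair cells and many neurons, lay at the low end with 38.0, 49.5 and 49.2 reads in control rods and 672, 674 and 648 in retina. It was 14.4-fold lower in rods (log2 difference -3.85, SE 0.15, adjusted p = 4.25e-11). Cacna1h, a T-type pore that opens at low voltage, was at the high end of these 8, with 146, 185 and 146 reads in rods and 1225, 1178 and 1509 in retina. Cacna1a and Cacna1b, the P/Q- and N-type pores of many synapses, differed by -3.15 (SE 0.177) and -3.21 (SE 0.245). Per kilobase, Cacna1s took 27.8% ± 4.7 of the summed level of these 9 alpha1 subunits in control rods and 11.5% ± 0.8 in control retina (SD, n = 3). This sum leaves out Cacna1f, which had 522 common-scale reads per kb in control rods and 324 in control retina. Cacna1s had 18.8 and 58.4.

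The 3 alpha2delta subunits were lower in rods as well. Cacna2d2, one of the targets of gabapentin, had 271, 234 and 243 common-scale reads in control rods and 1009, 1042 and 1085 in control retina, 4.19-fold lower (log2 difference -2.07, SE 0.136, limma with Benjamini-Hochberg adjusted p = 3.73e-09). Cacna2d1, the other gabapentin target, had 53.8, 74.7 and 52.3 in rods and 679, 651 and 719 in retina, 11.3-fold lower (log2 difference -3.50, SE 0.175). Cacna2d3 lay between them at -2.83 (SE 0.218). The subunits left out by the rule behaved otherwise on the common scale. Cacna2d4 was higher in rods by 1.02 on the log2 scale and Cacna1f by 0.69, and their calcium-binding partner Cabp4 by 1.74 (adjusted p = 6.82e-08, 1.29e-05 and 2.60e-10). The Cacna1f difference depended on the scale. On the deposited values its control groups overlapped, at 3938, 4078 and 3472 in rods and 3357, 4025 and 3403 in retina. Those of Cacna2d4 did not overlap (10667 to 10852 in rods and 7217 to 9156 in retina).

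Among the gamma subunits called lower in rods, Cacng7, a partner of AMPA receptors, had the smallest difference. It had 1727, 1580 and 1654 common-scale reads in control rods and 2086, 2077 and 2264 in control retina. The groups did not overlap, and the log2 difference was -0.37 (SE 0.0824, limma with Benjamini-Hochberg adjusted p = 0.00107). Relative to the median of all genes this was -0.01, and -0.16 when libraries were scaled by total reads. Cacng2 (stargazin), Cacng3 and Cacng4, which also accompany AMPA receptors, differed by -2.77, -2.81 and -2.76, and Cacng5 by -3.59. Cacng8, another AMPA receptor partner, had 2 reads in the 3 control rod libraries and 108 in the 3 control retina libraries, 33.8-fold lower on the common scale (95% exact conditional interval 9.14 to 283, counting error only). Cacng1, the gamma subunit of the skeletal muscle channel, was not called (log2 difference -0.30): it had 4 reads in control rods and 11 in control retina, 10 of the latter in library 2. Cacng6 had 1 read in the whole series and was not tested. Per kilobase, Cacng7 took 84.4% ± 2.6 of the gamma level in control rods and 48.1% ± 2.0 in control retina (SD, n = 3).

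Scn4a, the sodium channel pore of skeletal muscle, was the sodium channel gene with the highest level in rods. It had 948, 1437 and 666 common-scale reads in control rods and 310.2, 518 and 239.7 in control retina. The lowest rod library stood above the highest retina library, although the libraries of each fraction differed by 2.16-fold. The level was 2.86-fold higher in rods (log2 difference 1.52, SE 0.274, limma with Benjamini-Hochberg adjusted p = 1.88e-04). Among 6 skeletal muscle markers, Myh4 and Tnnt3 had no reads in any group, and the summed level of the list was 49.5 to 71.2 in control rods and 60.3 to 68.3 in control retina. Of the 3 muscle markers tested, Mylpf was higher in rods (log2 difference 0.68 in control and 1.01 in knockout mice) and the other 2 were lower, down to -3.67 for Acta1 in controls. The part of muscle RNA in the Scn4a level was not tested.

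Scn8a, the main sodium channel of axon initial segments and nodes, had 839, 670.1 and 792 common-scale reads in control rods and 1462, 1580 and 1575 in control retina. It was 2.01-fold lower in rods (log2 difference -1.01, SE 0.119, limma with Benjamini-Hochberg adjusted p = 2.53e-06). The brain forms Scn1a, Scn2a and Scn3a were lower by more, with differences of -3.56, -3.57 and -3.61, and Scn7a, a sodium-sensing relative, by -3.82 (SE 0.246). Scn9a, known from pain-sensing neurons, differed by -2.75. Scn11a had 0 reads in the rod libraries and 7 in control retina, at least 1.46-fold lower against a floor of 3 reads over the group and not called by edgeR or DESeq2, and Scn10a had 0 reads in all 12 libraries, both being channels of sensory neurons. Per kilobase, Scn4a took 66.5% ± 8.6 of the sodium alpha level in control rods and 13.5% ± 4.1 in control retina, while the share of Scn8a was 24.2% ± 7.8 and 26.8% ± 2.6 (SD, n = 3).

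All 4 sodium channel beta subunits were lower in rods, between -3.10 and -2.55. Scn2b, which is linked to the alpha subunit by a disulfide bond, had 68.1, 152 and 138 common-scale reads in control rods and 1038, 961 and 934 in control retina, 8.59-fold lower (log2 difference -3.10, SE 0.254, limma with Benjamini-Hochberg adjusted p = 4.14e-08). The groups did not overlap.

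**Figure D2:**
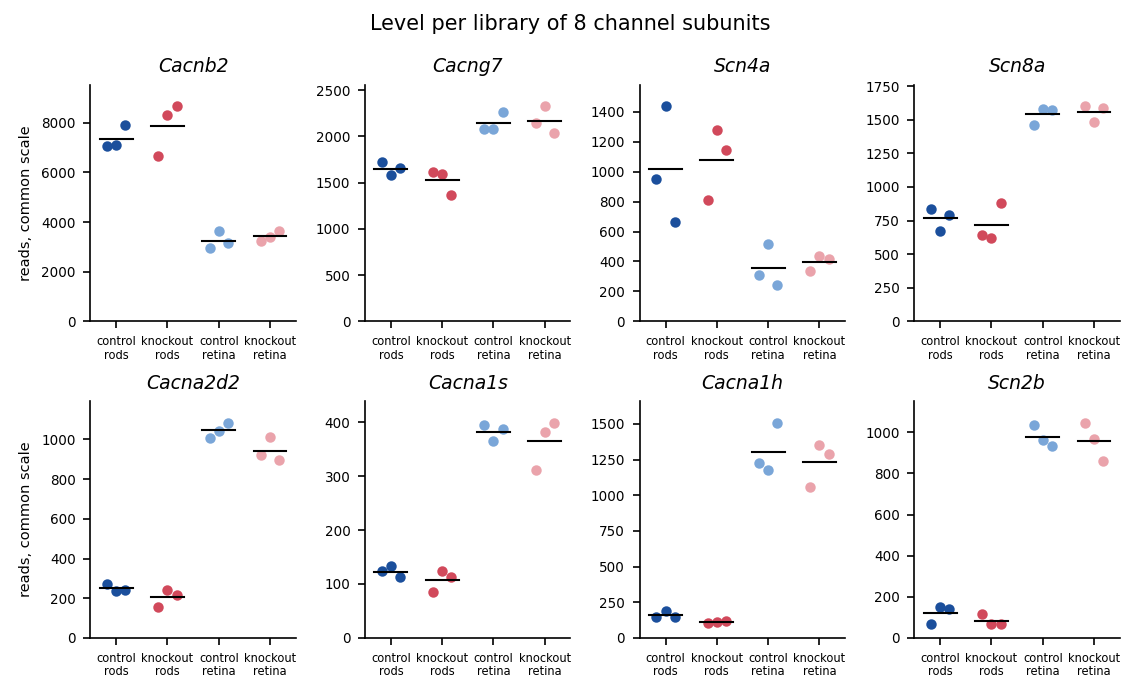
Common-scale reads per library (vertical axes) of 8 members in the 4 groups, 1 point per library and a line at the mean. The rod libraries of Cacnb2 (7057 to 7923 in controls) and Scn4a (666 to 1437) lie above the retina libraries, and those of Cacng7, Scn8a, Cacna2d2, Cacna1s, Cacna1h and Scn2b lie below.

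Ordered by level per kilobase of exon, control rods began with Cacng7 at 677 common-scale reads per kb (647 to 708 over the 3 libraries), Cacnb2 at 557 (533 to 599) and Scn4a at 144 (94.5 to 204). Their ranges over libraries did not overlap, which does not cover the choice of length. Lengths were exon unions, 13.2 kb for Cacnb2 and 2.44 kb for Cacng7, and the order of Cacnb2 and Cacng7 depends on them. In common-scale reads, Cacnb2 (mean 7368) stood above Cacng7 (mean 1654) in control rods. Per kilobase, Cacng7, Cacnb2 and Scn4a made up 36.8%, 30.3% and 7.86% of the summed level of the members. Among the genes that followed, Scn8a (48.6), Cacng3 (48.2) and Cacng4 (48.1) did not differ beyond their spread. In knockout rods Cacng7 (626, 562 to 664) and Cacnb2 (596, 504 to 656) overlapped. Control retina had a flatter order, with Cacng7 at 878, Cacng3 at 336 and Cacng4 at 327 at the top and Cacnb2 below them at 246.

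**Figure D3:**
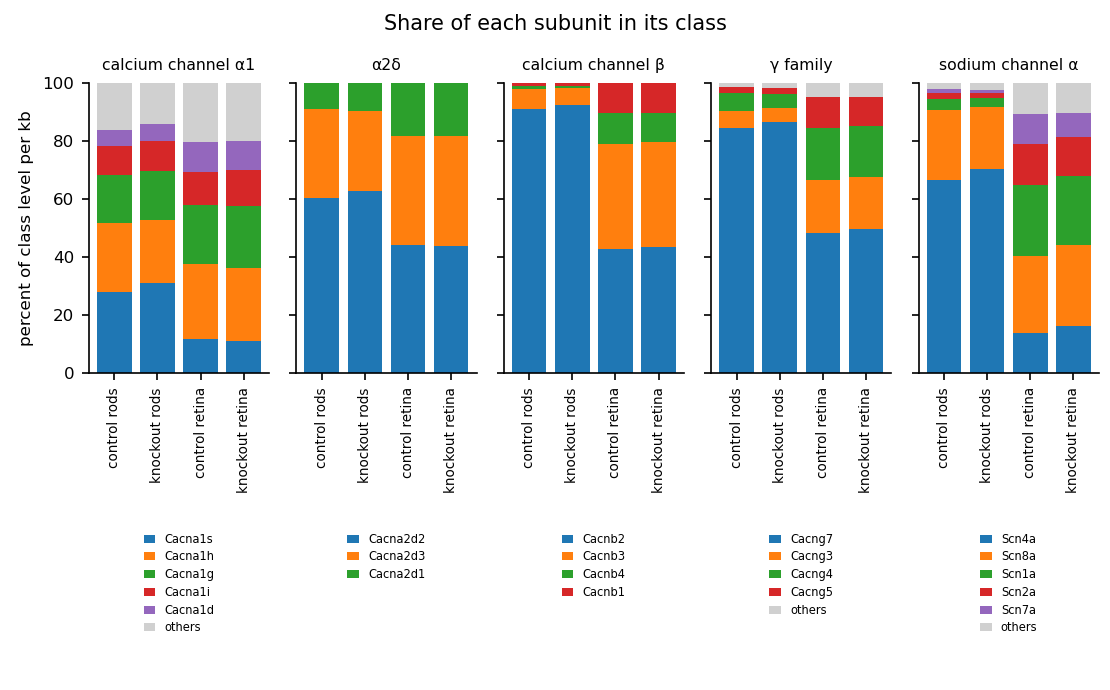
Share of the level per kilobase held by the members of 5 classes (percent, stacked, mean of 3 libraries) in the 4 groups. The alpha1 and alpha2delta bars leave out Cacna1f and Cacna2d4. The largest part of the beta, gamma and sodium alpha bars in control rods is Cacnb2 (90.8%), Cacng7 (84.4%) and Scn4a (66.5%), beside 42.7%, 48.1% and 13.5% in control retina.

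The same comparison in knockout mice used separate libraries. The same 2 members were called higher and the same 33 lower, beside 24% and 35.3% of all genes, and the median of the members was -3.26. Cacnb2 had 6665, 8309 and 8676 common-scale reads in knockout rods and 3237, 3409 and 3635 in knockout retina, a log2 difference of 1.19 (SE 0.101). Scn4a had 808, 1276 and 1145 in knockout rods and 333, 440 and 420 in knockout retina, a difference of 1.42 (SE 0.274). Cacng7 differed by -0.51, Scn8a by -1.13 and Cacna1s by -1.77. Cacng8 had 14 reads in knockout rods and 111 in knockout retina, 5.67-fold lower on the common scale (95% interval 3.24 to 10.7). Scn11a had 0 and 13 reads, at least 3.10-fold lower, and its place among the 33 again came through the filter passed only in retina.

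The second comparison asked whether loss of Pkm2 from rods changed these genes. None of the 35 members tested in rods was called in either direction, beside 0.0194% of all genes lower and 0% higher, and edgeR and DESeq2 on the recovered reads called none. An unadjusted p under 0.05 was found for 5 members, 14.3% of those tested, beside 4.77% of all genes. These were Cacna1b, Cacna1h, Cacng3 and Cacng4, which had lower values in knockout rods, and Cacng8, which had higher ones; Cacng3 and Cacng4 were picked out after their values were seen. The groups did not overlap for 3 members with lower values (Cacna1b, Cacna1h and Cacng4) and 2 with higher values (Cacng8 among them), or 8.57% and 5.71% of the members beside 5.4% and 4.49% of all genes. Cacng8 passed the filter for testing only through knockout rods, where it was higher. Its place in both counts is therefore no evidence of a difference.

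Cacna1b had the smallest p. Its size-factor-scaled reads were 26.9, 46.0 and 60.4 in control rods and 19.3, 26.8 and 15.1 in knockout rods, just short of overlapping, with a log2 difference of -1.05 (SE 0.350, limma with Benjamini-Hochberg adjusted p = 0.932). Over all alternative settings the adjusted p was 0.128 or more. Cacna1h had 118, 150.3 and 117 in control rods and 82.1, 91.1 and 98.2 in knockout rods (-0.49, SE 0.179, adjusted p = 0.932). Cacng8 rested on few reads, 0, 1 and 1 in control rods and 5, 2 and 7 in knockout rods, a ratio of 6.48 on the common scale (95% exact conditional interval 1.49 to 58.8, adjusted p of the limma fit 0.932). For the most abundant members the difference was 0.10 for Cacnb2 (SE 0.105), -0.11 for Cacng7 (SE 0.0948), 0.13 for Scn4a (SE 0.232) and -0.10 for Scn8a (SE 0.142). The value of Scn4a was the least certain of these, and without 1 library it ranged from -0.14 to 0.42.

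In rods, 29 of 35 members had a negative difference and the median was -0.23, beside 0.01 for all genes. One of the negative values was that of Cacng1, which passed the filter only through control rods. The medians ranged from -0.46 for the sodium beta subunits to -0.13 for the sodium alpha subunits, and all 9 alpha1 subunits had negative values. None of the markers of other retinal cells was called between genotypes in these libraries, but most of their values were negative in rods. An unadjusted limma p under 0.05 with a lower value was found for 7 of 11 Müller, 6 of 12 bipolar and 5 of 11 amacrine markers. It was found for 2 of 12 ganglion, 1 of 10 cone, 1 of 4 horizontal and 0 of 18 rod markers. The medians of the lists were -0.60 for amacrine (10 of 11 negative), -0.42 for bipolar (11 of 12), -0.39 for Müller (11 of 11) and -0.35 for ganglion (11 of 12). They were -0.11 for horizontal (2 of 4), -0.11 for cone (8 of 10) and 0.04 for rod markers (2 of 18). The summed level of the Müller list was 11246 to 14232 common-scale reads in control rods and 9159 to 10890 in knockout rods, and that of the amacrine list 2085 to 3093 and 1799 to 1875. The sums of the bipolar list (6098 to 7519 and 5447 to 7087), the ganglion list (1706 to 2122 and 1204 to 1868) and the horizontal list (101 to 155 and 97.2 to 108) overlapped between the genotypes. No listed marker of these cells was at 0 in any group. Their part in the member differences was not tested.

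In retina none of 36 members was called, beside 0.00391% of all genes lower and 0% higher, and again none with edgeR or DESeq2. The median difference was -0.03. Scn7a alone had an unadjusted p under 0.05, beside 4.18% of all genes, and alone had groups that did not overlap on the deposited scale, beside 4.76% of all genes lower and 4.53% higher. On the common scale the groups of Scn2a did not overlap either, at 656, 682 and 646 reads in control retina and 571, 644.1 and 598 in knockout retina. Scn2a was picked out after its values were seen, and the share over all genes was not counted on this scale. Scn7a had 385, 309 and 298 size-factor-scaled reads in control retina and 267, 249.6 and 269 in knockout retina (log2 difference -0.33, SE 0.123, limma with Benjamini-Hochberg adjusted p = 0.947). The next smallest p were for Cacna2d2, at 1222, 1277 and 1328 against 1128, 1246 and 1121, and for Cacna1e, an R-type pore, at 128, 142 and 159.5 against 102, 148 and 111. Both had overlapping groups.

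The difference between the genotype effects in rods and in retina was tested directly. None of 36 members was called, beside 0% of all genes, and 4 had an unadjusted p under 0.05, 11.1% beside 4.42% of all genes. They were Cacna1b (-1.01), Cacng4 (-0.41), Cacna1h (-0.42) and Cacng8 (1.74), each with a limma and Benjamini-Hochberg adjusted p of 0.978. Neither edgeR nor DESeq2 called any member.

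**Figure D4:**
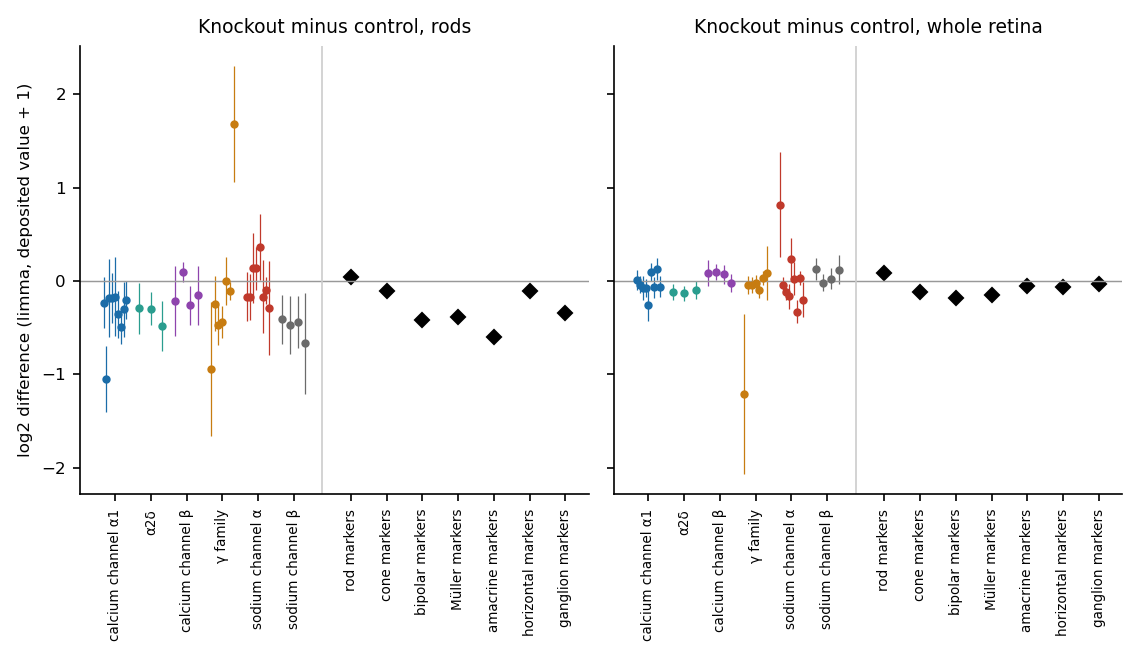
Log2 difference between knockout and control (vertical axis) for each tested member in rods and in retina, with bars for the SE and diamonds for the medians of 7 marker lists. Most members in rods lie below 0 (29 of 35, median -0.23), as do the diamonds of amacrine (-0.60), bipolar (-0.42) and Müller (-0.39) lists, while the retina values centre near 0 (median -0.03).

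Scn4a varied more between libraries of a group than most genes did. Its coefficient of variation was 38.4% in control rods, above that of 99.5% of the 3982 genes within 2-fold of its level, whose median was 7.05%. It was 40.7% in control retina, where the median of such genes was 8.46%, and 22.5% and 14.2% in knockout rods and retina. Rod and retina libraries with the same number within a genotype moved together: control library 2 was highest and library 3 lowest in both fractions, and knockout library 1 was lowest in both. Over the 6 same-numbered pairs the log2 levels had a Pearson r of 0.964 (exact permutation p = 0.00556, adjusted over 33 members p = 0.183) and a Spearman rho of 0.943 (exact permutation p = 0.0167, adjusted p = 0.55). Without the 2 pairs farthest from the median r was 0.870. The relation fails the correction for 33 members, and 3 pairs per genotype are too few for a value within each. Scn4a had the highest r of these members and Scn1a the next (0.951). The lowest was nearly as strong in the other direction, that of Scn4b (Pearson r = -0.942, exact permutation p = 0.0125, adjusted p = 0.206).

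The summed level of the pigment epithelium markers also varied between the same libraries. It was 1004, 272 and 1307 common-scale reads in control rods and 5776, 1346 and 6581 in control retina, lowest in the pair where Scn4a was highest. The sums of the cone and microglia lists were also lowest in that control pair (microglia 60.3 in rods and 571 in retina). In knockout mice the pigment epithelium sum was 1038, 931 and 420.2 in rods and 5550, 7552 and 2871 in retina. It was highest in library 1 in rods, where Scn4a was lowest. In retina it was highest in library 2, where Scn4a was highest, the reverse of the control order. The part of these lists in the Scn4a levels was not tested. Cacnb2 varied less, with coefficients of variation of 6.53%, 13.6%, 10.4% and 5.84% in control rods, knockout rods, control retina and knockout retina.

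**Figure D5:**
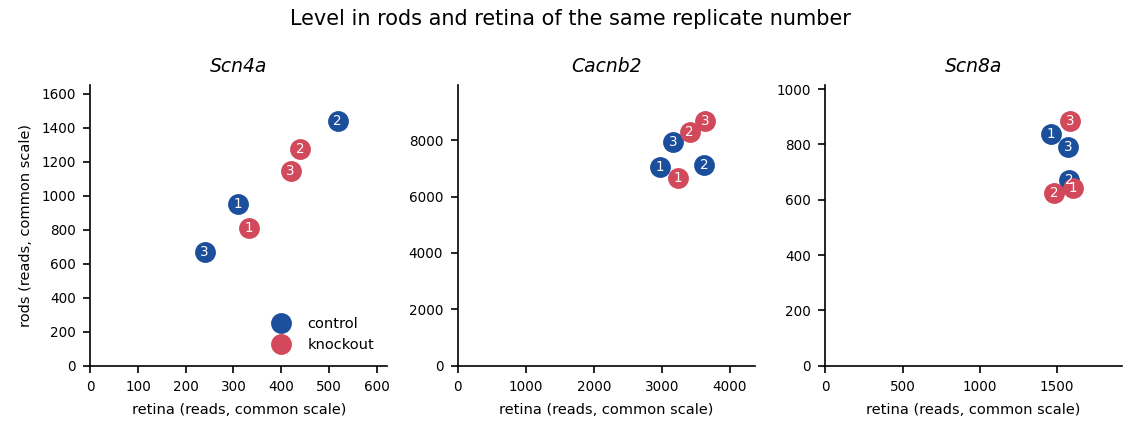
Common-scale level in rods (vertical axis) against that in retina (horizontal axis) for Scn4a, Cacnb2 and Scn8a, 1 point per same-numbered pair of libraries in control and knockout mice. The 6 Scn4a points rise from 239.7 in retina and 666 in rods to 518 and 1437.

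Of 32 regulators and partners of these channels, 31 were tested in control mice, and 3 were higher and 26 lower in rods, beside 23.6% higher and 35.7% lower of all genes. Rims2, an active-zone protein that binds calcium channels, was the 1 calcium channel regulator of 16 that was higher (log2 difference 0.99, SE 0.0945), and 14 were lower, down to -3.94 for Rem2, a small GTPase that inhibits calcium channels. Of 12 partners of sodium channels, 9 were lower and 2 higher. Nedd4l, a ubiquitin ligase for sodium channels, was among the latter (0.33, SE 0.0888). A call of this size rests on the common scale. Scaling by total reads moved the log2 difference of Cacng7 in control mice from -0.37 to -0.92. All 3 members of the sodium leak complex were lower, Nalcn by -2.93 and Unc80 by -0.56. None of these genes was called between genotypes. In rods 8 of 31 had an unadjusted p under 0.05, all with lower values in knockout mice, beside 4.77% of all genes. The smallest p were those of Cabp5, a calcium-binding protein that was also on the bipolar marker list (-0.63, SE 0.139, limma with Benjamini-Hochberg adjusted p = 0.868), Cabp1 (-0.71, adjusted p = 0.932) and Nalcn (-0.75, adjusted p = 0.932), picked out after their values were seen.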

How the data were processed

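RNA of Ribo-Tag bead pulldowns (rods) and of the input lysate (retina) was sequenced. The deposited signal values were, by their steps, whole reads divided by a size factor set separately in the 6 rod and the 6 retina libraries, and 100% of values came out whole within 0.1 read. The submitters' processing notes name CASAVA 1.8.2, HISAT2, DESeq2, edgeR and GRCm39; the counter, annotation and strand setting are not given in the sources used here. Reads of overlapping genes could therefore not be told apart.

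Genotypes were compared within a fraction on the deposited values, and rods with retina, and the difference of genotype effects, in 1 fit of 4 group means on recovered reads scaled by TMM over 12 libraries (common-scale reads). Tests used limma 3.58.1 with a variance trend in R 4.3.3 on log2(value + 1), for genes with a mean of at least 1 in 1 group, with Benjamini-Hochberg adjustment over all genes tested and a threshold of 0.05. edgeR 4.0.16 and DESeq2 1.42.0 on recovered reads, other scalings, filters and pseudocounts, a replicate block and leaving out each library were alternatives. Scripts were tested on simulated data. Intervals and floors cover counting error only. Lengths were exon unions of GENCODE vM21. No 2 replicates matched within sampling noise.

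Same-numbered rod and retina libraries of a genotype deviated together (r 0.235 to 0.442 in control and 0.198 to 0.337 in knockout, over 14656 genes), so their numbers pair them. The members and lists were chosen with earlier results of these data known. Values per library were given for Pkm, for the 3 members with the smallest p in each genotype comparison, for members higher in rods in controls, and for the leading members of each class. Values of some genes are not reported here.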

Additional observations from a re-analysis of the deposited data

How the results depend on the processing

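The member calls, 2 higher and 33 lower in rods than in retina and none between genotypes, were identical in number under RLE scaling, scaling by total reads, the authors' values and leaving out any 1 library. edgeR and DESeq2 called 32 lower in control mice, without Scn11a, and a filter of at least 10 reads in every library left 26 lower in both genotypes. The median of the members in control mice (-3.05) became -3.59 with scaling by total reads and -3.64 with the authors' values, which also moved the median of all genes to -0.76 and -0.80. In knockout mice it (-3.26) became -3.84 and -3.86 with these, -3.38 with a pseudocount of 0.1 and -3.39 with DESeq2. Without 1 library it ranged from -3.20 to -2.76 in control and from -3.36 to -3.12 in knockout mice, and the median of the difference of genotype effects from -0.30 to -0.057. Calls over all genes, 6004 higher and 9090 lower in control mice, became 1942 and 13144 with the authors' values, 2186 and 12701 with total reads, and 5912 and 3614 with the filter of 10 reads. Scaled by total reads, Cacnb2 had 6102 and 6418 reads in control and knockout rods and 3943 and 4188 in retina, and Scn4a had 486 in knockout retina. The cause was not tested beyond the scaling itself. With the replicate number as a block, which pairs rod and retina libraries, 2 members were higher and 33 lower in rods and none was called between genotypes. Control and knockout libraries share only a number (r -0.191 to 0.0703 in rods); with that block 4 genes were higher and 4 lower of all genes in rods, against 0 and 4, and 1 fit of all 12 libraries gave 0 and 17. Without 1 library the genes called lower in rods numbered 2 to 4, and 4 were called higher without control library 3. In retina, against 0 and 1, the block gave 0 and 0, the filter of 10 reads 0 and 0, and leaving out 1 library 0 to 4 higher and 0 to 2 lower. A fit with no variance trend was chosen after seeing the data and gave identical counts of member calls but called 0 of all genes between genotypes in rods (Pkm adjusted p = 0.0784) and 8 higher and 4 lower, against none, for the difference of genotype effects. Depth limits the members with few reads (Cacng1, Cacng6, Cacng8, Scn10a and Scn11a).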

Other observations

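The genes whose log2 levels, as deviations from the group means over the 12 libraries, were most like those of Scn4a were chosen after their values were seen, among 8899 genes with at least 100 common-scale reads. They were Sec24c (r = 0.98), Trim24 (0.98), Ftsj3 (0.97), Lpin1 (0.97) and Snrk (0.96), and the most opposite were Lin37 (-0.98) and Mapk3 (-0.98). Same-numbered rod and retina libraries are not independent, and the values are a description. Only 30 of 8900 genes had a larger spread within groups than Scn4a, whose pooled SD was 0.445 on the log2 scale.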
